A study of Sus scrofa with 3 samples.

Results

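Visceral adipose tissue of castrated miniature pigs that received testosterone (CMT) was compared with that of castrated pigs without it (CM). The members of the comparison were the genes of type mRNA that reached 1 UQRPKM in each of the 2 libraries, 14098 of the 22826 mRNA genes in the table. UQRPKM is a measure of reads per kilobase of gene divided by the upper quartile of that library. All pigs were male Chinese Wuzhishan miniature pigs, a small breed, which were 6 to 7 months old when obtained and were fed a diet high in fat and cholesterol (HFC) for 12 weeks. CM pigs were castrated, and CMT pigs were castrated and injected every week into muscle with 10 mg/kg testosterone propionate in corn oil. Intact male pigs (IM) had skin incisions in place of castration, and their library is given beside the other 2 as a reference. An injection of corn oil alone for CM or IM pigs was not given in the sources used here. The tissue was retroperitoneal fat, which lies behind the abdominal cavity against the body wall. Equal amounts of RNA were pooled within each group, from 4 to 6 pigs by the sample labels and from 4 by the published methods, so the sources differ on the number. A single library per group was sequenced. The comparison therefore had no replicates, and the condition could not be tested.

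Testosterone is made mainly in the testis, so castration removes most of it, and weekly injection of an ester of testosterone puts it back. It acts on fat cells and on the stromal cells around them, and enzymes of fat can convert it to more active, less active or estrogenic steroids. Visceral fat holds adipocytes, which store triglyceride and secrete leptin and adiponectin, together with vessels, stromal progenitors, macrophages and other immune cells. Loss of androgen in males is commonly followed by more visceral fat, and serum leptin usually follows fat mass.

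Reads were recovered as whole numbers from the deposited values and summed to 15106608 for CMT, 15561124 for CM and 16611931 for IM, of which 13449107, 13582288 and 14844063 lay on mRNA genes. The 5 genes with the most reads held between 5.96% and 6.21% of mRNA reads in each library. Each library carried the RNA of fat. ADIPOQ, which encodes adiponectin, stood at 63873 UQRPKM in CMT, 69193 in CM and 74928 in IM, and PLIN1, which coats the lipid droplet of adipocytes, stood at 12504 in CMT, 18587 in CM and 18396 in IM. Ratios below are CMT over CM on the log2 scale of UQRPKM without a pseudocount. The range after a ratio is its exact Clopper-Pearson 95% interval from the recovered reads, which covers counting error only and neither the spread between pigs nor between libraries.

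A gene was called higher or lower in CMT at a ratio of 1.5 or more in either direction. Of the 14098 genes, 1343 were higher in CMT (9.53%) and 1406 were lower (9.97%), while 11349 lay within 1.5-fold and are called level, which does not show that their levels were equal. The median log2 ratio was -0.02, with quartiles of -0.24 and 0.22. When the counting interval also had to leave out no change, 837 genes were higher (5.94%) and 911 were lower (6.46%). Such genes are called resolved in what follows. A further 2404 mRNA genes had reads in CM or CMT but stayed under 1 UQRPKM in at least 1 of them, and 420 of these had 10 reads or more over both.

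The share of genes past 1.5-fold differed with read depth. Among the 401 genes with fewer than 10 reads over both libraries, 56.4% passed but only 0.499% did so with a resolved ratio, and the median interval was 6.00 wide on the log2 scale. With 50 to 200 reads, 30.9% of 2784 genes passed and 26.6% were resolved. Among the 3877 genes with 1000 to 10000 reads, 4.57% passed, every one of them resolved, and the median interval width was 0.252. Genes whose levels rest on fewer than 50 reads in CM or CMT are therefore given as reads.

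**Figure D1:**
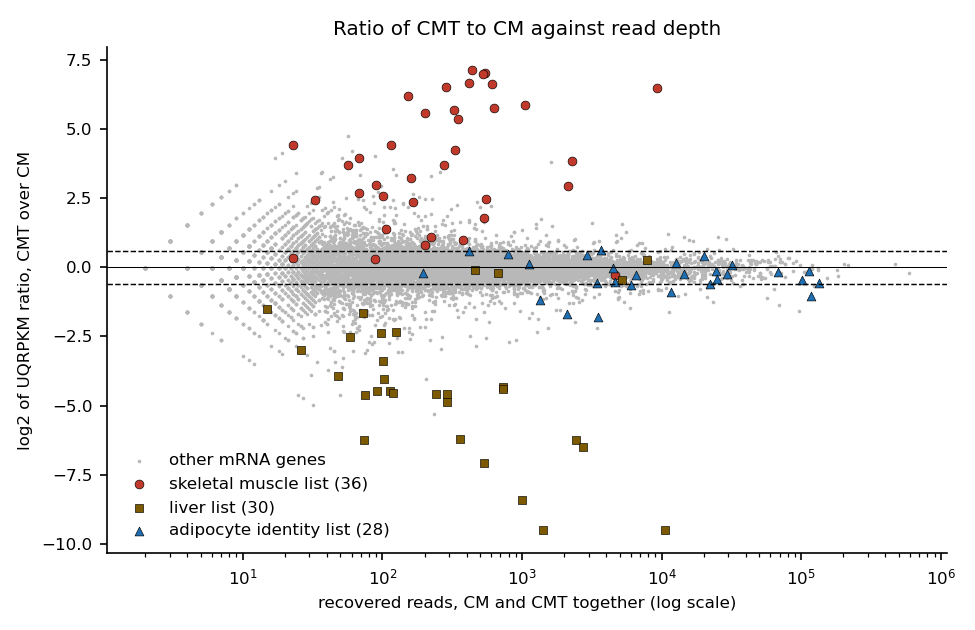
Log2 ratio of UQRPKM in CMT over CM for each of the 14098 mRNA genes compared, against the recovered reads of both libraries together on a log scale, with dashed lines at 1.5-fold. Skeletal muscle genes reach up to 7.13 and liver genes down to -9.51, while adipocyte genes, at high depth, lie between -1.78 and 0.62.

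The largest ratios above 1 belonged to skeletal muscle genes. Of 56 muscle genes of the list found in the table, 36 were compared, and 33 of these were higher in CMT, all resolved, against 9.53% of all genes. None was lower, and the median log2 ratio was 3.77. ACTA1, the actin of skeletal muscle fibres, stood at 3589 UQRPKM in CMT, 39.8 in CM and 49.8 in IM, a log2 ratio of 6.49 (6.21 to 6.79). MYH7, the myosin heavy chain of slow fibres, had 1025 reads in CMT, 17 in CM and 22 in IM (5.87). Both ACTA1 and MYH7 were near IM in CM and stood far above it in CMT.

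TNNC1, the calcium-binding troponin of slow fibres, had 433 reads in CMT, 3 in CM and 5 in IM, a log2 ratio of 7.13 (5.58 to 9.42). MYH1, a myosin heavy chain of fast fibres, had 522 reads in CMT, 4 in CM and 7 in IM, and ATP2A1, the calcium pump of fast fibres, had 603 reads in CMT, 6 in CM and 7 in IM. MLC2V, listed by RefSeq as MYL2, a slow myosin light chain, had 329 reads in CMT, 0 in CM and 2 in IM, which is at least 107-fold higher in CMT against a floor of 3 reads in CM. For all 4 genes CM and IM held fewer than 10 reads and CMT held more than 100. FBP2, the muscle isoform of fructose bisphosphatase, did not share this pattern, since it stood at 1302 UQRPKM in CMT, 1581 in CM and 1269 in IM (-0.28) and was present in all 3 libraries. The list held 0.188% of mRNA reads in CMT, 0.0278% in CM and 0.0246% in IM. The 20 members that were not compared included CKM, MB, NEB and TNNT3, which were listed at 0 in all libraries, so the list is not complete in this table. Members with 100 reads or more numbered 5 in CM and 31 in CMT.

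Genes of heart muscle were mixed. MYH6, the atrial myosin heavy chain, had 110 reads in CMT, 9 in CM and 27 in IM (3.57), but RYR2, the calcium release channel of the heart, was not high in CMT, at 8.29 UQRPKM in CMT, 11.8 in CM and 13.5 in IM (-0.51). DES, the intermediate filament of striated and smooth muscle, stood at 459 UQRPKM in CMT, 33.0 in CM and 52.9 in IM (3.80). Of the 15 genes of its smooth muscle and pericyte list, 11 lay within 1.5-fold, among them TAGLN and CNN1, which encode proteins bound to actin in contractile cells (-0.04 and 0.49), and PDGFRB, a growth factor receptor of pericytes (0.03). Besides DES, MYOCD was higher (1.96), and ACTG2 and HIGD1B were lower (-0.82 and -0.85). Of these last 3, ACTG2 alone was resolved. PDLIM3, a protein of the muscle Z-disc that is in neither muscle list, was among the 10 highest remaining ratios, with 143 reads in CMT, 28 in CM and 48 in IM (2.31).

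The largest ratios below 1 belonged to genes of plasma proteins made in the liver. Of 64 liver genes in the table, 30 were compared, and 26 of these were lower in CMT, 25 of them resolved, against 9.97% of all genes. None was higher, and the median log2 ratio was -4.44. ALB, which encodes albumin, had 15 reads in CMT, 10612 in CM and 10 in IM, a log2 ratio of -9.51 (-10.34 to -8.78). TF, the iron carrier transferrin, had 31 reads in CMT, 2696 in CM and 19 in IM, and HP, the haemoglobin-binding haptoglobin, had 33 reads in CMT, 2419 in CM and 26 in IM. The CM library thus stood apart from both others.

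APOC3, an apolipoprotein of triglyceride-rich particles, had 2 reads in CMT, 1418 in CM and 0 in IM. TTR, the carrier of thyroid hormone and retinol-binding protein, had 4 reads in CMT, 530 in CM and 5 in IM, and FETUIN, listed by RefSeq as AHSG, had 3 reads in CMT, 993 in CM and 5 in IM. HPX, the haem carrier hemopexin, had 0 reads in CMT, 1634 in CM and 1 in IM, so that it was at least 560.0-fold lower in CMT against a floor of 3 reads. The other 34 members were under 1 UQRPKM in a library. In CMT 31 of the 64 genes had no read, compared with 4 in CM. The list held 0.0552% of mRNA reads in CMT, 0.270% in CM and 0.0508% in IM. A few members did not follow it. ITIH3, an inhibitor chain that binds hyaluronan, stood at 1052 UQRPKM in CMT, 877 in CM and 701 in IM (0.26), and APOA1, the main apolipoprotein of HDL, stood at 1714 in CMT, 2339 in CM and 2539 in IM (-0.45), so both were present at similar levels in all libraries.

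**Figure D2:**
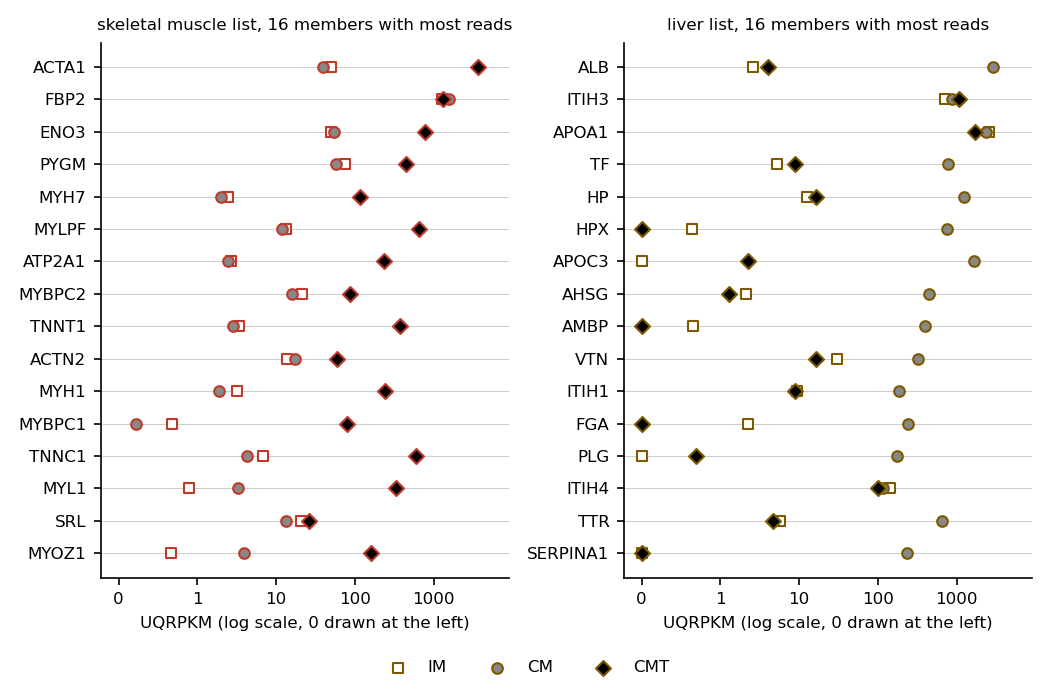
UQRPKM on a log scale in the IM (open squares), CM (grey circles) and CMT (black diamonds) libraries for the 16 muscle genes and the 16 liver genes with the most reads, with values of 0 drawn at the left edge. CMT stands alone at the right for nearly all muscle genes and CM stands alone at the right for nearly all liver genes, with FBP2, ITIH3, APOA1 and ITIH4 close together in all 3 libraries.

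A rule on levels was also applied to the same CM, CMT and IM values, so it is not independent of the ratios above. Of the 22826 mRNA genes in the table, 271 had a CMT level 5-fold or more above CM and above IM. Of these, 45 reached 1 UQRPKM in both CM and CMT. Of the 33 with 100 reads or more over CM and CMT, 27 were in the muscle lists. Genes whose CM level was 5-fold or more above the other 2 numbered 342, of which 47 reached 1 UQRPKM in both CM and CMT. Of the 53 with 100 reads or more, 34 were in the liver list. The set of CMT held 0.00706% of mRNA reads in CM and 0.194% in CMT, and the set of CM held 0.289% in CM and 0.00675% in CMT. Without the muscle, heart, liver and epidermis lists and without both sets, 13979 genes remained, of which 1288 were higher in CMT (9.21%) and 1354 were lower (9.69%). Pieces of muscle or liver in a pool and an effect of treatment on these genes cannot be told apart with 1 library per group.

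Genes of other cell types at the edge of the fat were also uneven. Of 12 genes of mesothelium, the cell layer that lines the abdominal cavity, 9 were higher in CMT, all resolved, and 1 was lower, against 9.53% and 9.97% of all genes, with a median log2 ratio of 1.12. MSLN, which encodes the surface protein mesothelin, had 135 reads in CMT, 34 in CM and 15 in IM (1.95). The keratin KRT8 stood at 307 UQRPKM in CMT, 102 in CM and 51.2 in IM (1.58). KRT19, listed in the table as LOC100515339, stood at 194 in CMT, 62.1 in CM and 32.6 in IM (1.64). The lower gene was also a keratin, KRT18, with 26 reads in CMT, 47 in CM and 53 in IM (-0.89, -1.64 to -0.17), so the keratins did not share a direction. SLPI, a secreted protease inhibitor with far more reads, was level at -0.12. Of 7 genes of red cells and platelets, 4 were lower, all resolved, against 6.46% of all genes, and none was higher. HBB, the beta chain of haemoglobin, stood at 2331 UQRPKM in CMT, 4193 in CM and 4534 in IM (-0.85). PPBP, a chemokine of platelet granules, had 26 reads in CMT, 129 in CM and 0 in IM (-2.35). TFR2, a transferrin receptor, had the lowest ratio, with 9 reads in CMT, 92 in CM and 6 in IM (-3.39). PPBP and TFR2 were high in CM only, as the liver list was, whereas HBB was low in CMT only. Of 9 nerve genes, 3 were higher, all resolved, against 5.94% of all genes. Of 7 epidermal genes, 1 was higher and 3 were lower, against 9.53% and 9.97% of all genes. The higher gene, LGALS7, was not resolved, with 2 reads in CMT and 1 in CM, and 2 of the lower genes were resolved. The keratin of upper skin layers KRT10 had 52 reads in CMT, 64 in CM and 221 in IM.

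Genes of adipocyte identity were on balance a little lower in CMT. Of 28 compared, 7 were lower and 2 were higher, all resolved, against 6.46% and 5.94% of all genes, and 19 lay within 1.5-fold, with a median log2 ratio of -0.24 against -0.02 over all genes. The list held 2.48% of mRNA reads in CMT, 3.17% in CM and 3.04% in IM. PPARG, the master regulator of adipocyte differentiation, was level at 1704 UQRPKM in CMT, 1745 in CM and 1454 in IM (-0.03, -0.12 to 0.05). ADIPOQ was close to level as well (-0.12), and CEBPA, a transcription factor that acts with PPARG, stood at 2778 in CMT, 3723 in CM and 3196 in IM (-0.42). No row was found under the symbols FABP4 and LPL. In bulk tissue, fewer cells of a type and less RNA per cell cannot be told apart.

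The lower adipocyte genes were well covered, with 426 reads or more in CMT. LEP, which encodes leptin, the satiety hormone of fat, stood at 156 UQRPKM in CMT, 502 in CM and 167 in IM, which was 3.22-fold higher in CM than in CMT (log2 ratio -1.69, -1.83 to -1.54). CMT lay next to IM and both lay well below CM. PLIN4, a lipid droplet coat protein with 39044 reads in CMT, 77438 in CM and 77731 in IM, stood at 4585 UQRPKM in CMT, 9349 in CM and 8944 in IM (-1.03). C14H10orf116, listed by RefSeq as ADIRF, an adipogenesis regulatory factor, stood at 1339.9 in CMT, 4607 in CM and 2864 in IM (-1.78), and SLC2A4, the insulin-responsive glucose transporter GLUT4, at 119.5 in CMT, 268 in CM and 161 in IM (-1.16). For PLIN4 the level in IM was close to that in CM, so that CMT was the low library. CEBPD, an early regulator of adipogenesis, was 1 of the 2 higher genes, at 909 UQRPKM in CMT, 591 in CM and 568 in IM (0.62).

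Among secreted factors, SFRP5, an inhibitor of Wnt ligands secreted by adipocytes, stood at 938 UQRPKM in CMT, 2628 in CM and 1682 in IM (-1.49, -1.57 to -1.40). DIO3, the deiodinase that inactivates thyroid hormone, was higher in CMT with few reads, 57 reads in CMT, 10 in CM and 38 in IM (2.47, 1.49 to 3.61). SPP1, the secreted matrix protein osteopontin, stood at 187 UQRPKM in CMT, 100.2 in CM and 204 in IM (0.90). Of the 21 adipokines, their receptors and thyroid hormone genes compared, 3 were higher, 3 were lower and 15 were within 1.5-fold, with 9.53% higher and 9.97% lower over all genes.

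**Figure D3:**
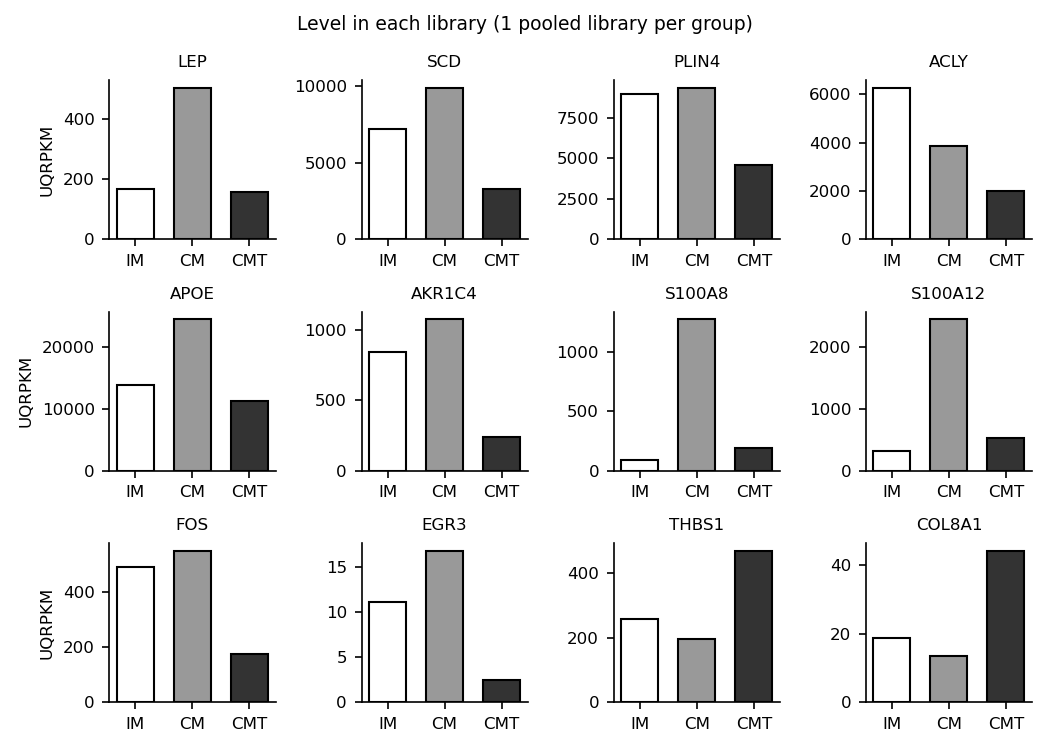
UQRPKM of 12 named genes in the IM, CM and CMT libraries, 1 bar per pooled library and therefore without error bars. LEP, S100A8 and S100A12 are high in CM only, ACLY steps down from IM to CM to CMT, PLIN4 is low in CMT only, and THBS1 and COL8A1 are highest in CMT.

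Several abundant genes of fatty acid synthesis were lower in CMT. Of 26 genes of fatty acid and triglyceride synthesis, 6 were lower and 1 was higher, all resolved, against 6.46% and 5.94% of all genes, with a median log2 ratio of -0.34. SCD, the desaturase that makes oleate, stood at 3308 UQRPKM in CMT, 9909 in CM and 7188 in IM, 3.0-fold higher in CM (-1.58, -1.60 to -1.56). ACLY, which makes cytosolic acetyl-CoA from citrate, stood at 2007 in CMT, 3879 in CM and 6272 in IM (-0.95), and THRSP, a regulator of lipogenic genes, stood at 2896 in CMT, 5330.2 in CM and 5704 in IM (-0.88). CMT was the lowest of the libraries for all 3 of these genes. FADS2, the delta-6 desaturase of polyunsaturated fatty acids, stood at 144 in CMT, 231 in CM and 208 in IM (-0.68). FASN, the fatty acid synthase itself, was within 1.5-fold at 8276 UQRPKM in CMT, 9236 in CM and 10283 in IM (-0.16), as was DGAT2, which makes triglyceride (-0.16). PCK1, which feeds glycerol synthesis in fat, was the higher gene, at 5326 UQRPKM in CMT, 3377 in CM and 5402 in IM (0.66, 0.62 to 0.69), with CMT next to IM.

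Lipolysis genes showed smaller ratios. Of 19, 3 were lower, against 9.97% of all genes, none was higher, and the median log2 ratio was -0.24. These 3 were PLIN4, PLIN5, listed in the table as LSDP5 (-0.94), a droplet protein of oxidative tissues, and AQP7, the glycerol channel of adipocytes (-0.62). Scaled by total mRNA reads, AQP7 came to -0.57 and no longer passed 1.5-fold. The main lipases PNPLA2 and LIPE lay within 1.5-fold, at 0.07 and -0.47. ABHD5, the activator of PNPLA2, stood at 806 UQRPKM in CMT, 556 in CM and 976 in IM (0.54, 0.42 to 0.65), which is short of 1.5-fold but passed it at 0.59 when scaled by total mRNA reads. Of 40 fatty acid oxidation genes, 7 were lower, against 9.97% of all genes, and none was higher. The lower genes included UCP3, a mitochondrial carrier, at 1239.6 UQRPKM in CMT, 2332 in CM and 1941 in IM (-0.91), ACOX2, a peroxisomal oxidase of branched fatty acids, at 113 in CMT, 239.9 in CM and 183 in IM (-1.09), and ACSM5, an acyl-CoA synthetase with 19 reads in CMT, 109 in CM and 61 in IM (-2.56). UCP3 is also a gene of skeletal muscle, whose list was high in CMT, yet UCP3 was lower there.

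**Figure D4:**
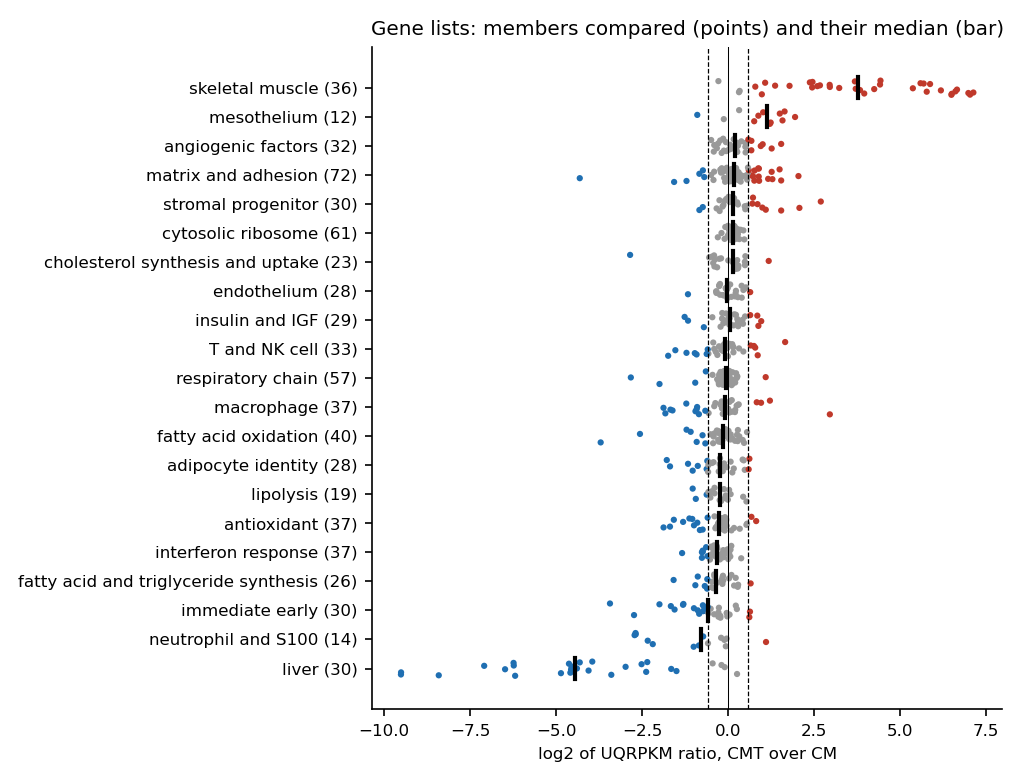
Log2 ratio of CMT over CM for each compared member of 21 gene lists, with the number of members in brackets, the median as a black bar, members 1.5-fold or more higher in red, lower in blue and the rest in grey, and dashed lines at 1.5-fold. The muscle list (median 3.77) and the liver list (-4.44) stand far from 0, and the medians of the other lists lie between -0.78 and 1.12.

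Of 28 genes that make, convert or sense steroids, 24 lay within 1.5-fold, 4 were lower, 3 of them resolved, and none was higher, with 9.97% lower and 9.53% higher over all genes. ESR1, the estrogen receptor alpha, had 27 reads in CMT, 24 in CM and 25 in IM (0.13, -0.72 to 0.99), and its interval reaches past 1.5-fold in both directions. AKR1C4, which belongs to a family of ketosteroid reductases, was 4.53-fold higher in CM, with 238 UQRPKM in CMT, 1075 in CM and 844 in IM and 638 reads in CMT, 2808 in CM and 2314 in IM (-2.18, -2.30 to -2.05). HSD3B1, which oxidises and isomerises delta-5 steroids, stood at 369 UQRPKM in CMT, 592 in CM and 336 in IM (-0.68), and SRD5A1, which makes dihydrotestosterone, at 35.6 in CMT, 57.0 in CM and 47.7 in IM (-0.68). For AKR1C4, IM lay nearer to CM than to CMT. FKBP4, a cochaperone of steroid receptors, stood at 1926 UQRPKM in CMT, 1376 in CM and 1659 in IM (0.48), within 1.5-fold.

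Of 19 genes known to respond to androgen in the prostate, 2 were higher, 1 was lower and 16 were within 1.5-fold, with 9.53% higher and 9.97% lower over all genes. HPGD, which inactivates prostaglandins, had 64 reads in CMT, 29 in CM and 45 in IM (1.10, 0.45 to 1.79), and KLF9, a transcription factor also induced by glucocorticoid, stood at 633 UQRPKM in CMT, 393 in CM and 418 in IM (0.69). PMEPA1, an inhibitor of TGF-beta signalling, was lower, at 135 in CMT, 218 in CM and 189 in IM (-0.68). FKBP5, a cochaperone often used as an androgen readout, was level (-0.08).

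Genes of neutrophils and S100 proteins were lower in CMT. Of 14 compared, 8 were lower, 7 of them resolved, and 1 was higher, against 9.97% and 9.53% of all genes, with a median log2 ratio of -0.78. S100A8, a calcium-binding alarmin of myeloid cells, stood at 193 UQRPKM in CMT, 1272 in CM and 90.4 in IM (-2.72, -3.02 to -2.42). Its partner S100A9 stood at 229 in CMT, 1157 in CM and 85.6 in IM (-2.34), and the related S100A12 at 537 in CMT, 2449 in CM and 323 in IM (-2.19). For all 3 genes CM stood far above IM and CMT. LCN2, an iron-siderophore binding protein of neutrophils and fat, stood at 467 in CMT, 770.4 in CM and 309 in IM (-0.72). Defining neutrophil genes had few reads in CMT, with 12 reads in CMT, 75 in CM and 10 in IM for CEBPE, a transcription factor of late granulocytes. The summed level of the list was 1883 UQRPKM in CMT, 6242 in CM and 1226 in IM, and that of the liver list was 3114, 16440.1 and 3732. Whether blood or liver RNA had a part in the S100 difference was not tested.

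Macrophage genes split in CMT. Of 37 compared, 10 were lower, 4 were higher and 23 were within 1.5-fold, against 9.97% lower and 9.53% higher over all genes, with a median log2 ratio of -0.10. Of the lower genes 8 were resolved, and of the higher genes 3 were. The log2 ratios ran from -1.88 to 2.96, so the largest one was above 1. In CMT, 2 members of the list were 5-fold or more above both CM and IM. The most abundant, C1QC, a chain of complement C1q, was level at 2452 UQRPKM in CMT, 2618 in CM and 3222 in IM (-0.09), as was LAPTM5, a lysosomal protein of leukocytes (0.11). EMR1, listed by RefSeq as ADGRE1 and known as the F4/80 antigen, stood at 30.6 in CMT, 93.6 in CM and 45.6 in IM (-1.61, -1.91 to -1.33), and CD68, a lysosomal marker listed as LOC100520753, had 48 reads in CMT, 90 in CM and 38 in IM (-0.95). MARCO, a scavenger receptor that liver macrophages also carry, had 25 reads in CMT, 86 in CM and 40 in IM (-1.82), and LYZ, which encodes lysozyme, had 49 reads in CMT, 175 in CM and 78 in IM (-1.88). The lower macrophage genes had at most 626 reads in CM, and every member with more than 1000 reads over both libraries was level.

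Of 10 genes of the phagocyte oxidase, which makes superoxide, and of related oxidases, 2 were lower and 2 were higher. Over all genes, 9.97% were lower and 9.53% were higher. Both lower genes and 1 of the higher genes were resolved. NCF1, a cytosolic subunit, stood at 63.9 UQRPKM in CMT, 136 in CM and 60.3 in IM (-1.09), and GP91-PHOX, listed by RefSeq as CYBB, the catalytic subunit, at 82.5 in CMT, 147 in CM and 95.9 in IM (-0.84). NCF4 and RAC2 of the same complex lay within 1.5-fold (-0.21 and -0.26). The higher genes were DUOX1, a dual oxidase, with 69 reads in CMT, 33 in CM and 49 in IM (1.02, 0.41 to 1.67), and NOXA1, an oxidase activator, with 15 reads in CMT, 8 in CM and 5 in IM (0.87, -0.46 to 2.31). Among chemokines and cytokines, 7 of 37 were lower and 4 were higher, with 9.97% and 9.53% over all genes. CCL23, a chemokine for monocytes and neutrophils, stood at 225 UQRPKM in CMT, 796 in CM and 239.5 in IM (-1.83), and CCL16, a chemokine of liver, had 6 reads in CMT, 228 in CM and 2 in IM (-5.29). CCL2, TNF and CCL5, general inflammatory signals, lay within 1.5-fold (-0.44, 0.02 and 0.00).

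Lymphocyte genes showed no common direction. Of 33 T and NK cell genes, 5 were higher and 7 were lower, and of 12 B and plasma cell genes, 5 were higher and 2 were lower, with 9.53% higher and 9.97% lower over all genes. CD247, a chain of the T cell receptor complex with the most reads, was level (0.04), CD244, a receptor of NK cells, stood at 25.1 in CMT, 58.1 in CM and 24.9 in IM (-1.21), and IL7R, a cytokine receptor of T cells, had 39 reads in CMT, 12 in CM and 20 in IM (1.66). MHC class II genes, which present antigen, were mostly level, with 9 of 10 within 1.5-fold and SLA-DRA at 7912 in CMT, 9761 in CM and 8852 in IM (-0.30). Of 37 interferon-induced genes, 7 were lower, all resolved, against 6.46% of all genes, and none was higher, with a median log2 ratio of -0.31. Examples were IRF7, a transcription factor of the interferon response, at 71.5 UQRPKM in CMT, 121 in CM and 113 in IM (-0.76), and RSAD2, an antiviral enzyme listed as IRG6, at 159 in CMT, 269 in CM and 331 in IM (-0.76).

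Of 20 genes of cholesterol efflux and lipoproteins, 17 lay within 1.5-fold, 1 was higher and 2 were lower, with 9.53% higher and 9.97% lower over all genes. APOE, an apolipoprotein, stood at 11363 UQRPKM in CMT, 24527 in CM and 13949.8 in IM (-1.11, -1.14 to -1.08). The summed level of the liver list was likewise highest in CM, and the part of liver RNA in the APOE values was not tested. APOD, a lipid carrier listed as LOC100157318, went the other way, at 984 in CMT, 513 in CM and 338 in IM (0.94). ABCA1, which exports cholesterol, lay within 1.5-fold (0.53). Cholesterol synthesis was level, with 21 of 23 genes within 1.5-fold.

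Some genes of the extracellular matrix were higher in CMT. Of 72 matrix and adhesion genes, 15 were higher, 13 of them resolved, and 6 were lower, against 9.53% and 9.97% of all genes. Of 28 collagens, 8 were higher and 2 were lower, all resolved, against 5.94% and 6.46% of all genes. THBS1, the matrix glycoprotein thrombospondin that activates TGF-beta, stood at 469 UQRPKM in CMT, 195 in CM and 257 in IM (1.27, 1.18 to 1.35). LTBP2, which binds elastic fibres, stood at 60.7 in CMT, 24.8 in CM and 35.9 in IM (1.29), and GAS6, a ligand of TAM receptors, at 1267 in CMT, 789 in CM and 1097 in IM (0.68). Levels in CMT were above both other libraries for THBS1 and LTBP2.

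The collagens that were higher were minor ones. COL8A1, a short-chain collagen of basement membranes, stood at 44.2 UQRPKM in CMT, 13.7 in CM and 18.8 in IM (1.70), and its partner COL8A2 had 160 reads in CMT, 43 in CM and 31 in IM (1.86). COLL11A1, as the table spells it, a fibrillar collagen of cartilage and tendon, stood at 52.4 in CMT, 11.5 in CM and 3.89 in IM (2.19). The fibrillar collagens that make up most of the matrix, COL1A1, COL1A2 and COL3A1, were within 1.5-fold (0.21, 0.08 and -0.21). KERA, a proteoglycan of cornea and tendon, was also higher, with 154 reads in CMT, 53 in CM and 17 in IM (1.5), as was FMOD, a proteoglycan of tendon and cartilage, at 719 in CMT, 320.3 in CM and 280.1 in IM (1.17). The skeletal muscle and mesothelium lists were high in CMT beside these genes, and the part of muscle fascia or serosa in them was not tested.

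Of 30 stromal progenitor genes, 8 were higher and 2 were lower, against 9.53% and 9.97% of all genes. C7, a complement component made by stromal cells, stood at 329 UQRPKM in CMT, 165 in CM and 227 in IM (1.0, 0.85 to 1.14), and DPP4, a peptidase on early progenitors, had 66 reads in CMT, 30 in CM and 51 in IM (1.10). PDGFRA, the receptor that marks these cells, lay within 1.5-fold at 434 in CMT, 306 in CM and 288 in IM (0.50), and the abundant surface protein THY1 was level (-0.04). Of 32 genes that promote or restrain vessel growth, 7 were higher, all resolved, against 5.94% of all genes, and none was lower. THBS1, given above with the matrix genes, was 1 of these 7. VEGFA, the main growth factor of vessels, stood at 867 in CMT, 576 in CM and 1083 in IM (0.59), at the edge of 1.5-fold, and ANGPTL1, an angiopoietin-like protein, at 336 in CMT, 174 in CM and 179 in IM (0.95). Endothelial genes were mostly level. Of 28, 26 lay within 1.5-fold, 1 was higher and 1 was lower, with 9.53% higher and 9.97% lower over all genes. PECAM1, an adhesion molecule of endothelium, stood at 4735 in CMT, 4038 in CM and 4338 in IM (0.23). The lower gene was MMRN2, at 130 in CMT, 293 in CM and 460 in IM (-1.17), and the higher was EMCN, listed as LOC100628129 (0.64).

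Single transcription factors that mark body position differed between the pools. TBX15, a T-box factor listed as LOC100158194 whose level differs among fat depots, stood at 17.8 UQRPKM in CMT, 105 in CM and 33.2 in IM (-2.56, -2.92 to -2.22), with CM far above both others. HOXC10, a homeobox factor of lower trunk and limb, had 77 reads in CMT, 24 in CM and 50 in IM (1.64), and SHOX2, a homeobox factor of limb and of some fat depots, had 106 reads in CMT, 51 in CM and 98 in IM (1.02). Of 32 such genes, 5 were higher, 3 were lower and 24 were within 1.5-fold, with 9.53% higher and 9.97% lower over all genes. Where in the retroperitoneal depot each piece was cut was not given in the sources used here.

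Immediate early genes, which are induced within minutes of a stimulus or of tissue handling, were lower in CMT. Of 30 compared, 15 were lower, 14 of them resolved, and 2 were higher, against 9.97% and 9.53% of all genes, with a median log2 ratio of -0.58. FOS, a subunit of the AP-1 factor, stood at 174 UQRPKM in CMT, 552 in CM and 493 in IM (-1.66, -1.86 to -1.47), and EGR1, a zinc finger factor, at 148 in CMT, 363 in CM and 406 in IM (-1.30). The related EGR3 had 15 reads in CMT, 97 in CM and 67 in IM (-2.73), and ZFP36, which degrades AU-rich mRNA, had 2 reads in CMT, 114 in CM and 316 in IM. CMT was low against both IM and CM for these genes, whereas SERPINB2, an inhibitor of plasminogen activators, was high only in CM, at 44.1 in CMT, 176 in CM and 4.36 in IM (-1.99). The time between death and freezing was not given in the sources used here, and its part was not tested. Proliferation genes had low levels. Of 25, 6 were lower, 4 of them resolved, and none was higher, against 9.97% and 9.53% of all genes. FOXM1 and CCNA2, lower but not resolved, had 3 and 12 reads in CMT and 5 and 21 in CM. Over all compared genes with 50 to 200 reads, 30.9% passed 1.5-fold in either direction. MCM2, a subunit of the replication helicase, had 69 reads in CMT, 167 in CM and 158 in IM (-1.32), while MKI67, the usual marker of dividing cells, lay within 1.5-fold (-0.25).

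Antioxidant genes included 11 lower and 2 higher of 37, against 9.97% and 9.53% of all genes. PON1, a plasma esterase of liver, had 37 reads in CMT, 132 in CM and 40 in IM (-1.88). PRDX1 and PRDX5, which reduce peroxides, stood at 2617 UQRPKM in CMT, 4364 in CM and 4289 in IM, and 1501 in CMT, 2787 in CM and 1876 in IM, respectively (-0.74 and -0.89). GPX3, the secreted glutathione peroxidase, fell short of 1.5-fold at 17379.9 in CMT, 11852 in CM and 26408 in IM (0.55, 0.53 to 0.57) but passed it at 0.61 when scaled by total mRNA reads, and GSTA4, which detoxifies lipid aldehydes, was higher at 154 in CMT, 96.2 in CM and 128 in IM (0.68). Both were lowest in CM. Nuclear genes of the respiratory chain were mostly level. Of 57, 52 lay within 1.5-fold, 4 were lower and 1 was higher, against 9.97% and 9.53% of all genes. The lower genes included NDUFA6 of complex I, at 45.8 in CMT, 325 in CM and 126 in IM (-2.83). Another was ATP5G2 of the ATP synthase, at 409 in CMT, 1627 in CM and 381 in IM (-1.99). The higher gene was ATP5J, at 317 in CMT, 148 in CM and 73.7 in IM (1.09). Genes of the cytosolic ribosome had small ratios, mostly above 1. None of 61 passed 1.5-fold, while 55 had a ratio above 1 and 6 had one below. Their median log2 ratio was 0.16, against -0.02 over all compared genes, whose upper quartile was 0.22. Other scalings shifted all log2 ratios by 0.05 and 0.03. The share of mRNA reads of the list was 8.22% in CMT, 7.13% in CM and 6.56% in IM.

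Insulin and IGF genes contained 4 higher and 3 lower of 29, with 9.53% and 9.97% over all genes. IGFBP3, the main carrier of IGF, stood at 1962 UQRPKM in CMT, 1005 in CM and 1072 in IM (0.96, 0.86 to 1.07), and GRB10, an adaptor that restrains the insulin receptor, at 618 in CMT, 335 in CM and 608 in IM (0.88). AKT2, the kinase that moves GLUT4 to the surface, was lower at 1647 in CMT, 2681 in CM and 2132 in IM (-0.70), as was GLUT4 itself. In glucose use, 4 of 33 genes were lower and 2 were higher, with 9.97% and 9.53% over all genes. GYS2, the liver-type glycogen synthase also present in fat, had 58 reads in CMT, 167 in CM and 319 in IM (-1.57), and HK2, an insulin-responsive hexokinase, stood at 181 in CMT, 333 in CM and 246 in IM (-0.88). PYGM, the glycogen phosphorylase of muscle, was high in CMT with the rest of the muscle list (2.95).

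Once the muscle, heart, liver and epidermis lists and the genes 5-fold apart were set aside, the largest ratios above 1 among genes with 100 reads or more lay between 2.31 and 3.35. PKIB, an inhibitor of protein kinase A, had 201 reads in CMT, 20 in CM and 102 in IM (3.29, 2.62 to 4.03), and ENY2, a subunit of the SAGA and TREX-2 complexes, had 101 reads in CMT, 18 in CM and 27 in IM (2.45). LSMD1, an auxiliary subunit of the N-terminal acetyltransferase complex NatC, had 156 reads in CMT, 26 in CM and 157 in IM (2.54), and TMEM213, a membrane protein, had 192 reads in CMT, 34 in CM and 47 in IM (2.46). LSMD1 was low in CM alone and PKIB was lowest in CM with IM between, while ENY2 and TMEM213 were high in CMT alone. The largest ratios below 1 reached -3.08. ELP5, a subunit of the Elongator complex that modifies tRNA, had 15 reads in CMT, 123 in CM and 196 in IM (-3.08), and FRMPD1, a scaffold protein, had 31 reads in CMT, 188 in CM and 53 in IM (-2.64). NDUFA6, EGR3, TBX15 and ACSM5 were also among these 10. The genes with LOC names in both sets have no name in the table, and reads shared with near-identical copies cannot be told apart for them.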

How the data were processed

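Total RNA of visceral adipose tissue, with RNA integrity numbers above 7, was pooled per group by the authors, and single-end reads were obtained with Ion Proton sequencing. The authors mapped filtered reads to Sscrofa 10.2 with MapSplice and deposited 1 table of upper-quartile RPKM values (UQRPKM), whose scale is set by the upper quartile and not the total of each library. The counting tool was not given in the sources used here.

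Whole reads were recovered from the values with upper quartiles of 149, 142 and 146 for IM, CM and CMT and were found for 100% of 20838 genes above 0. For each gene the shortest length that gave whole reads in all libraries was taken, so reads can be too low by a common factor, which widens an interval. Ratios, intervals and figures were computed in Python 3.11.15 with numpy 2.4.6, pandas 2.3.3, scipy 1.17.1 and matplotlib 3.10.9, and the code was tested on simulated data. Libraries were grouped by their labels. With 1 library per group no p-value was computed. The limits of 1.5-fold and 1 UQRPKM are those of the paper, applied to both libraries and without its test.

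Members and the 39 gene lists were chosen with earlier results of these data known. Named genes were those of the paper, up to 4 members per list with the largest ratio among those with 50 reads or more, the 2 members with the most reads per cell type list, and the 10 largest ratios in each direction among genes with 100 reads or more, both with and without the muscle, heart, liver and epidermis lists and genes 5-fold apart. Other list members in the text were chosen after their values were seen, and a few members are not reported here. Symbols were matched through RefSeq names of another genome build, so no coordinates or sequences are given. Alternatives were other level, fold and read limits, a pseudocount of 1, other scalings and lists without their leading members.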

Additional observations from a re-analysis of the deposited data

Results flagged for a closer look

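The values above used genes of type mRNA, and signal was also present outside them. The 13 mitochondrially encoded protein genes, which the table gives as ncRNA, held 7.97% of all reads in CM, compared with 5.23% in IM and 6.21% in CMT. All 13 had a ratio of CMT over CM below 1, with a median log2 ratio of -0.51 and a range of -0.67 to -0.14, and 2 of them, ND4 and ND4L of complex I, were 1.5-fold or more lower. ND4 stood at 36519 UQRPKM in CMT, 58107 in CM and 32410 in IM. The nuclear genes of the respiratory chain did not share this, with a median log2 ratio of -0.07. Among the 2370 genes of types other than mRNA that reached 1 UQRPKM in both libraries, 138 were 1.5-fold or more higher in CMT and 161 were lower with the counting interval off no change. By the same rule, 5.94% of the 14098 mRNA genes were higher and 6.46% were lower.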

How the results depend on the processing

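Counts of genes past 1.5-fold, 1343 higher and 1406 lower in CMT, depended on the limits. At 5 UQRPKM or more in both libraries they were 805 and 881, at 2-fold 596 and 629, with the counting interval off no change 837 and 911, with the interval wholly beyond 1.5-fold 277 and 357, and with 100 reads or more over both, chosen after seeing the data, 510 and 584. They stayed within 1.5 times the reported counts with a pseudocount of 1 (1198 and 1261), scaled by total mRNA reads (1543 and 1231), without the muscle, heart, liver and epidermis lists (1306 and 1377), and under the other alternatives run. The other scalings shifted all log2 ratios by 0.05 (total mRNA reads) and 0.03 (median ratio).

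The log2 ratio of the summed level was 2.56 for the muscle list, with 2.61 under total reads, 2.06 without ACTA1 and 4.75 without members at 100 UQRPKM or more in IM. For the liver list it was -2.40, with -2.35 under total reads, -2.12 without ALB and -6.61 without members at 100 UQRPKM or more in IM. The last alternative of each was added after seeing the data. The adipocyte identity median of -0.24 became -0.18 under total reads. Of 615 alternative values of 205 named genes, 590 stayed within their counting interval, 25 moved beyond it and 0 reversed. Scaled by total mRNA reads, GPX3 (0.61) and ABHD5 (0.59) passed 1.5-fold and AQP7 (-0.57) and CD79A (-0.55) no longer did. CD79A, whose ratio was otherwise -0.61, also fell short with a pseudocount of 1 and under the median ratio (-0.58 in both). No paired analysis was possible because each group had 1 library, and for the same reason no library could be left out. Depth limits the genes with fewer than 50 reads most.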

Other observations

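Laminins, which build basement membranes, differed by chain. LAMC3 stood at 27.3 UQRPKM in CMT, 10.4 in CM and 25 in IM (log2 ratio 1.40) and LAMA3 at 44.5 in CMT, 26.1 in CM and 27.8 in IM (0.77), while LAMB3 stood at 16.5 in CMT, 28.7 in CM and 29.0 in IM (-0.79). LAMA3 and LAMB3 encode chains of the same epithelial laminin, and they did not share a direction. The abundant LAMA4 and LAMB1 of vessel and adipocyte basement membranes lay within 1.5-fold (-0.09 and -0.14).

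INHBA, which encodes the beta A subunit of activin, lay within 1.5-fold at 55.1 UQRPKM in CMT, 64.2 in CM and 75.6 in IM (-0.22, -0.53 to 0.08). GNRH1, which encodes gonadotropin-releasing hormone, had 0 reads in CMT, 1 in CM and 0 in IM, so no ratio is given. APOA5, a liver apolipoprotein, had 18 reads in CMT, 55 in CM and 13 in IM (-1.65, -2.51 to -0.86).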
